A study of Mus musculus with 6 samples.

Results

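The genes described here are 34 imprinted genes of the mouse, among them Dlk1, out of the 54532 genes listed for 6 colon tumors. All 34 were found by gene symbol, 33 had at least 1 read in a tumor, and Magel2 had 0 in every tumor. The list was selected on Dlk1, whose level differed between the groups in these same tumors, and the other 33 genes were added because they are known as imprinted. The difference of a member between the groups is therefore given as a description, and no test of it is offered as evidence.

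RNA-seq was performed on polyA RNA of whole tumors from 3 Tmem173fl/fl (AOM_WT) and 3 Tmem173iΔmye (AOM_CRE) samples. Mice of both groups carried Tmem173, the gene encoding the innate immune adaptor STING, between loxP sites, on a C57BL/6N background. Both received azoxymethane (AOM), a colon carcinogen, with 3 cycles of dextran sulfate sodium (DSS), which injures the colon epithelium, and then tamoxifen once tumors were present. Tmem173iΔmye mice also carried Lyz2-Cre-ert2, a tamoxifen-activated recombinase driven by the promoter of lysozyme 2, a gene of macrophages and neutrophils. The comparison addressed what losing STING in myeloid cells does to tumors that had already formed. Deletion was limited to myeloid cells while all cells of a tumor were sequenced. A lower level in such a sample can come from fewer cells of a type or from less RNA per cell, and the 2 cannot be told apart. Ages of these mice are not given in the labels, nor do the labels say that each sample is a different mouse, so any p-value measures only the spread between these samples.

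Imprinted genes are expressed from the copy inherited from a single parent, which is set by DNA methylation laid down in the egg or sperm. They lie in clusters, each with a control region, and in most clusters a non-coding RNA and its protein-coding neighbours are read from opposite parental copies. Many act on growth: the paternally expressed Igf2 and Dlk1 are known mainly as promoters of fetal growth or of immature cell states, and the maternally expressed Cdkn1c, Phlda2, Igf2r and H19 as restraints on growth. Most are high in the embryo and placenta and fall after birth. The reads counted here were not split by parental copy, so they measure level and not imprinting.

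The starts of Dlk1 and Meg3 are shown because the levels of both are described below. Meg3 is the non-coding RNA of the opposite parental copy in the same cluster. Dlk1 was selected for its difference between the groups, so its contrast with Meg3 is a description only. Each line gives the 250 bases before the annotated start, on the plus strand of chromosome 12 in the RefSeq table for GRCm38.p6, with each CG, the dinucleotide that can be methylated, in capitals. The Dlk1 stretch spans chr12:109452573-109452822 and the Meg3 stretch chr12:109540746-109540995.
Dlk1: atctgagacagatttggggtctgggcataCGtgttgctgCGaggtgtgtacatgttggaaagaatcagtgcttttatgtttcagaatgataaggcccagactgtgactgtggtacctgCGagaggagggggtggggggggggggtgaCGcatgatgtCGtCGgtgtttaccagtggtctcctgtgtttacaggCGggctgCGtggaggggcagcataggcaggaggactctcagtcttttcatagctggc
Meg3: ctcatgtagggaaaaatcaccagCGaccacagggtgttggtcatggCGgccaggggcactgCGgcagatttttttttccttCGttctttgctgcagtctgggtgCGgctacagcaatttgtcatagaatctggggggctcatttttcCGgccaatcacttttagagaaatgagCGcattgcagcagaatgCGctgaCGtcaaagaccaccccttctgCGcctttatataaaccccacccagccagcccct
The Dlk1 stretch held 8 CG and the Meg3 stretch 10, and the median over 32851 mouse promoters of this length was 6. The letters TATAAA, searched on both strands, were at position -25 of Meg3 and were not in the Dlk1 stretch, and 12.4% of all promoters held them. TGACGTCA, the palindrome known as the cyclic AMP response element, was at -57 of Meg3, was not in the Dlk1 stretch, and was in 1.55% of all promoters. Promoter entries were found for 28 of the 34 genes.

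H19, a non-coding RNA and the other member of large spread between tumors, is the host of miR-675, whose mature arms are shown because they are known as an active product of H19. They lie on the minus strand of chromosome 7, at chr7:142577078-142577099 for the 3p arm and chr7:142577112-142577133 for the 5p arm, inside the span of H19. Bases 2 to 8, the seed that pairs with target RNAs, are in capitals.
mmu-miR-675-3p: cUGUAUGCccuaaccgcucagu
mmu-miR-675-5p: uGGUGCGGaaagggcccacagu
The seeds of the arms differ, so they belong to no common seed family, and the polyA libraries used here do not measure mature miRNAs.

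Between 15329810 and 16533732 reads were counted per tumor. Tmem173 itself had 1705 to 2911 counts in Tmem173fl/fl and 1953 to 2291 counts in Tmem173iΔmye tumors, so whole tumor RNA did not separate the genotypes at the targeted gene. All 9 epithelial markers were detected, with a summed level of 12459 to 16004 CPM (counts scaled to a common library size). Reads on 4 Y-linked genes were present in Tmem173fl/fl replicate 1 and in Tmem173iΔmye replicates 1 and 2, so 1 tumor against 2 carried them, a difference in sex that the labels do not record.

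FPKM here is reads divided by gene length and by a scaling factor for each library. Of the 34 members, 19 reached a mean of 0.5 FPKM over the 6 tumors and were tested among 16426 genes. Fold changes are for Tmem173iΔmye over Tmem173fl/fl, from edgeR's quasi-likelihood fit across all of these genes. Dlk1 alone, 1 of the 19, passed the threshold used by the study, a log2 fold change of 1 or more in size with an unadjusted p under 0.05. Of all genes tested, 2.12% passed it, 1.26% as higher and 0.864% as lower in Tmem173iΔmye. An unadjusted p under 0.05 was reached by 2 members, Dlk1 and Grb10, and by 6.14% of all genes. Values of the groups did not overlap for 2 members that were higher in Tmem173iΔmye, Grb10 and Tssc4, against 6.03% of all genes, and for 1 that was lower, Dlk1, against 6.47%. With Benjamini-Hochberg adjustment in edgeR over these 16426 genes, 0 genes and so 0 members had an adjusted p under 0.05, and the lowest adjusted p was 0.742. The call depended on the tool and the filter. DESeq2 on the same genes placed 28 genes under 0.05, and edgeR without the filter 6 of 30939 genes, of which 1 was a member, Dlk1, in each case. Dlk1 reached the filter only through the group where it was high, at 1.495 FPKM in Tmem173fl/fl against 0.096 FPKM in Tmem173iΔmye. Its calls are therefore no evidence. As Dlk1 chose the list, nothing is read from these counts about the list.

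Most of the other tested members moved little, and they moved in both directions. H19, Grb10 and Mkrn3 moved more, with log2 fold changes of 1.38, 0.75 and -0.59. Of the 19, Dlk1 included, 10 had a log2 fold change above 0 and 9 below 0, with a median of 0.05. The median of all genes was -0.0042. A log2 fold change smaller than 0.5 in size was found for 15 of the 19, although 17 of them had at least 50 counts in every tumor. The ratio of the highest to the lowest of the 6 tumors had a median of 1.76 over these members and of 1.74 over all genes tested. Dlk1 had a ratio of 68.5 and H19 of 29.6, above those of 96.3% and 95.9% of all tested genes. The ratio of Dlk1 contains the group difference on which it was selected, and its lowest tumor had 3 counts. Its rank is therefore no evidence. Within Tmem173fl/fl tumors the ratios were 2.65 for Dlk1 and 10.2 for H19, above those of 84.9% and 96.0% of tested genes. Within Tmem173iΔmye tumors they were 5.61 and 4.51, above those of 94.8% and 93.7%.

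**Figure D1:**
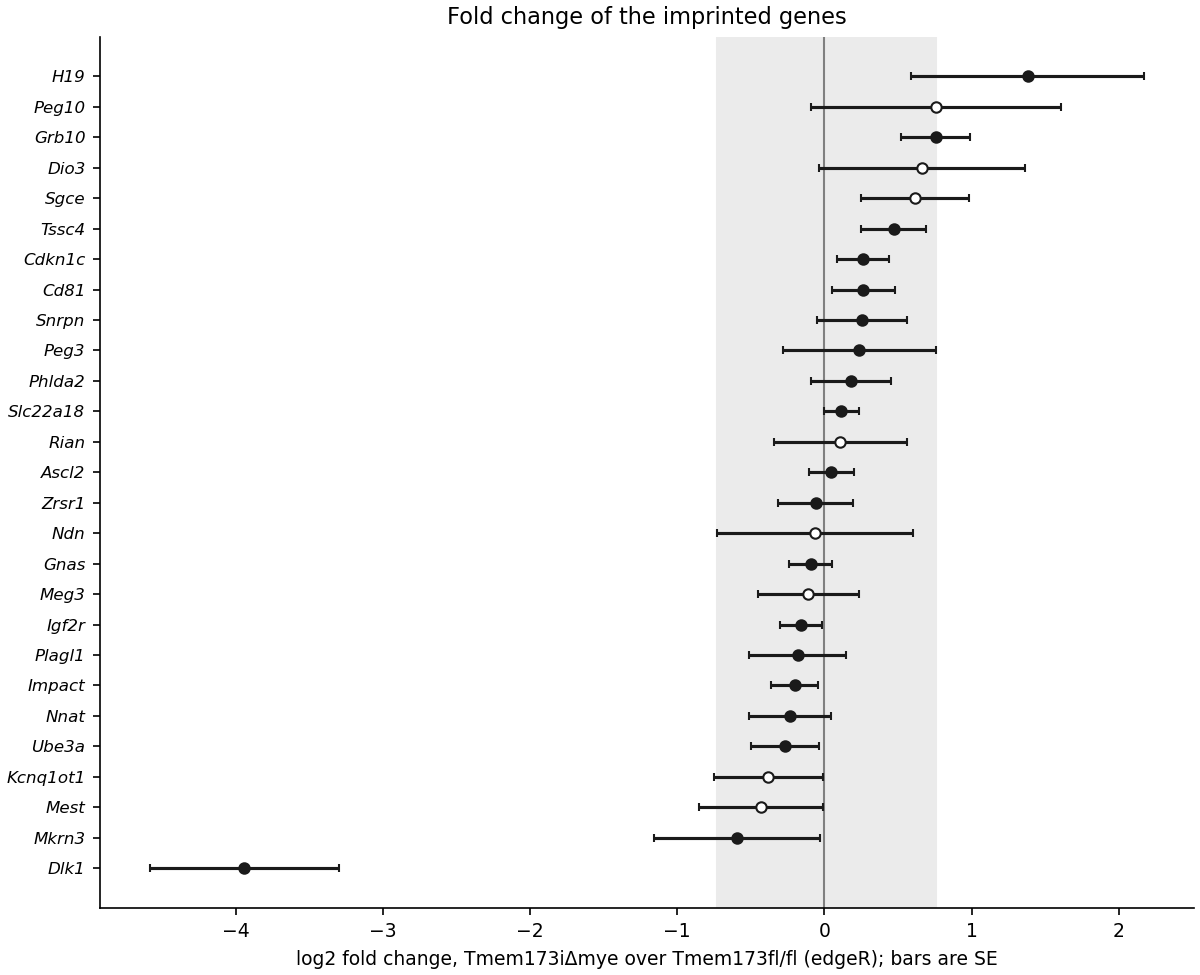
Log2 fold change (Tmem173iΔmye over Tmem173fl/fl, horizontal axis) of the 27 members for which it could be computed, with bars for SE. The 19 filled points passed the FPKM filter and the 8 open points were fitted without it, and the grey band spans the 5th to 95th percentile of all genes tested, from -0.73 to 0.76. Dlk1 lies far below the band at -3.94, and H19 lies above it at 1.38 with a wide bar.

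Dlk1 encodes a membrane protein with EGF-like repeats, related to the Notch ligands, that is known for holding preadipocytes and other progenitors in an immature state. It lies on the plus strand of chromosome 12 of GRCm38 from 109452823 to 109463336 (ENSMUSG00000040856). Replicates 1, 2 and 3 had 116, 74 and 218 counts in Tmem173fl/fl and 6, 17 and 3 counts in Tmem173iΔmye tumors. Every Tmem173fl/fl tumor was higher than every Tmem173iΔmye tumor, and the lowest of the former, replicate 2, stood clear of the highest of the latter, also replicate 2. As CPM these were 7.54, 4.93 and 13.1 against 0.379, 1.07 and 0.191, with group means of 8.52 ± 4.16 and 0.547 ± 0.464 (SD, n = 3 each). Its level was 15.4-fold lower in Tmem173iΔmye, a log2 fold change of -3.94 (SE 0.64). Per gene length the level was low in both groups, 1.495 ± 0.729 FPKM and 0.096 ± 0.081 FPKM (SD, n = 3 each).

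Dlk1 was chosen for groups that do not overlap, so any split of the same 6 tumors keeps its direction, and the values by Y-linked reads are given as a description. Among tumors with such reads, Dlk1 had 116 counts in the Tmem173fl/fl tumor and 6 and 17 in the Tmem173iΔmye tumors. Without them, it had 74 and 218 counts in the Tmem173fl/fl tumors and 3 in the Tmem173iΔmye tumor. With Y-linked reads as a covariate, the log2 fold change was -4.14 (SE 0.72). Leaving out each tumor in turn gave log2 fold changes from -4.86 to -3.49. The part of sex in the difference was not tested.

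The other members of the Dlk1 cluster had far smaller differences, each within its SE of 0, and overlapping groups. Meg3, a non-coding RNA of the maternal copy known as a growth restraint, starts 88.2 kb downstream of the Dlk1 start and is read in the same direction. Its counts were 151, 59 and 115 in Tmem173fl/fl and 113, 107 and 80 in Tmem173iΔmye tumors. These ranges overlapped, with CPM of 6.89 ± 2.94 against 6.32 ± 1.08 (SD, n = 3 each) and a log2 fold change of -0.11 (SE 0.34) in the fit without a filter, since Meg3 was under 0.5 FPKM. Rian, the non-coding host of small nucleolar RNAs and miRNAs, starts 151 kb from Dlk1. It had 67, 23 and 35 counts against 51, 56 and 28, and a log2 fold change of 0.11 (SE 0.45). The groups again overlapped throughout. Dio3, the enzyme that inactivates thyroid hormone, lies at the far end of the cluster, 826 kb from Dlk1. It had 10, 5 and 5 counts in Tmem173fl/fl and 3, 17 and 12 counts in Tmem173iΔmye, a log2 fold change of 0.66 (SE 0.70) with overlapping groups.

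Mirg, another non-coding RNA of the cluster, had 3, 1 and 1 counts in Tmem173fl/fl and 4, 1 and 2 counts in Tmem173iΔmye. The retrotransposon-derived Rtl1, a gene of placenta and muscle, had 1 read in all 6 tumors together. Neither allows a fold. The ratio of Meg3 to Dlk1 counts was 1.30, 0.797 and 0.528 in the Tmem173fl/fl tumors and 18.8, 6.29 and 26.7 in the Tmem173iΔmye tumors. By contrast, the ratio of Meg3 to Rian, both read from the maternal copy, was 2.25, 2.57 and 3.29 against 2.22, 1.91 and 2.86. The Meg3 to Dlk1 ratio has Dlk1, on which the list was selected, as its denominator, so its shift only restates that of Dlk1. In Tmem173iΔmye tumors it divides by 6, 17 and 3 counts. Meg3 and Rian kept similar proportions in all tumors.

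**Figure D2:**
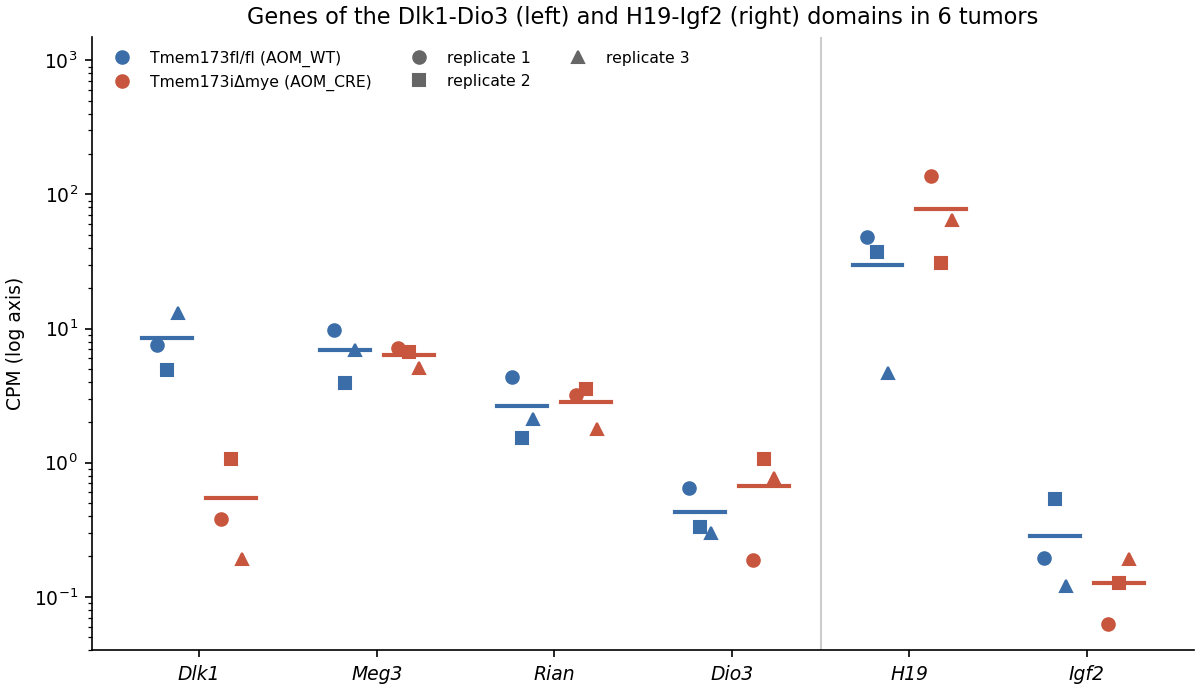
CPM on a log axis of 4 members of the Dlk1-Dio3 cluster and of H19 and Igf2 in the 6 tumors, with colour for the group, point shape for the replicate and a bar for the group mean. Dlk1 points of the groups do not overlap, those of Meg3, Rian and Dio3 do, and H19 ranges from 4.68 to 138 CPM with overlap.

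Other genes on the same stretch of chromosome 12 were read from the same fit. In the cluster and within 500 kb on either side of it, 13 genes were tested. Dlk1 was the only gene past the threshold, beside 0.864% of all genes that passed it as lower. As Dlk1 chose the list, its own call was fixed in advance. Groups also did not overlap for 1700001K19Rik, which was lower in Tmem173iΔmye, beside 6.47% of all genes. The 12 others had log2 fold changes from -1.15 (1700001K19Rik) to 0.81 (Gm17111), with a median of -0.04, and 5 of them were above 0. Of these 12, Gm3379 and Dio3os lie between Dlk1 and Dio3, inside the cluster. The nearest tested protein-coding neighbours on each side were Wdr25 at 0.01 (SE 0.24), 559 kb before the Dlk1 start, and Ppp2r5c at -0.11 (SE 0.14), 994 kb after it. Dio3os, the antisense RNA beside Dio3, had 97, 23 and 99 counts in Tmem173fl/fl and 32, 82 and 96 counts in Tmem173iΔmye, with a log2 fold change of -0.05 (SE 0.59). Between Dlk1 and Dio3 the table lists 118 genes, of which 67 are miRNA genes and 23 small nucleolar RNA genes. Of these small RNA genes, 1 miRNA gene and 0 small nucleolar RNA genes had any count. PolyA libraries are known to hold few such RNAs.

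**Figure D3:**
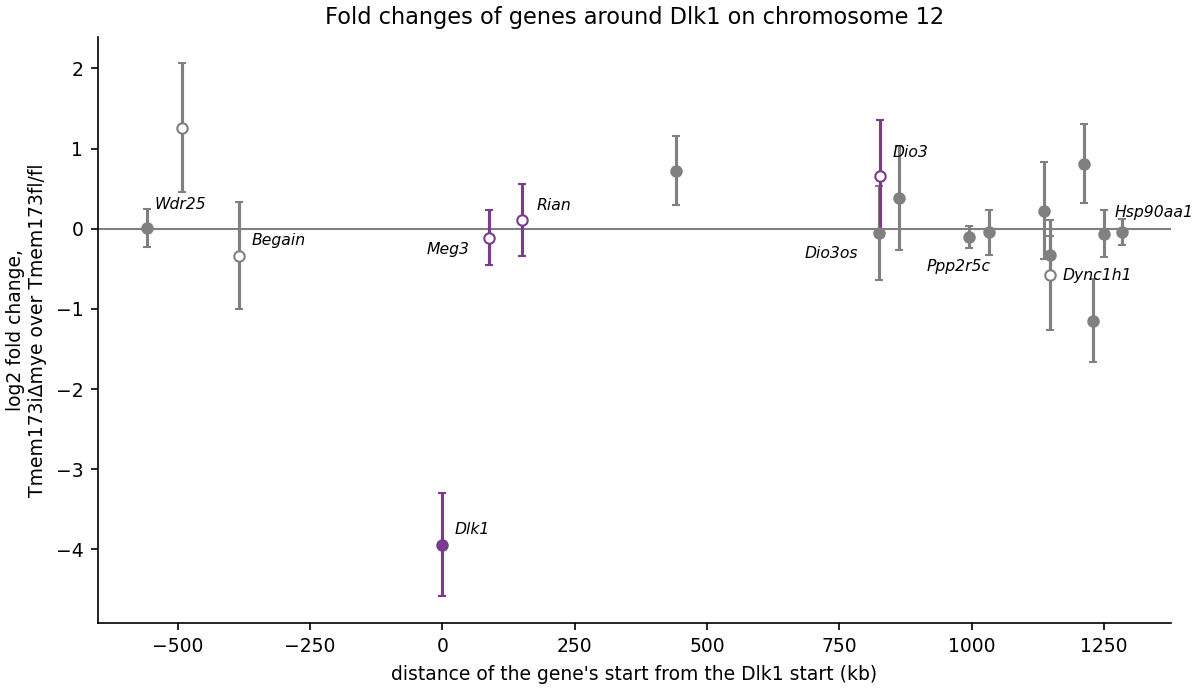
Log2 fold change (Tmem173iΔmye over Tmem173fl/fl, with SE bars) of 19 genes around Dlk1, against the distance of their start from the Dlk1 start in kb. Purple points are members, grey points other genes, and open points (6 of 19) were under the FPKM filter. Dlk1 is the low point at distance 0, and the other genes lie between -1.15 and 1.26.

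H19, a maternally expressed non-coding RNA known as a restraint on growth in the embryo, had the second largest spread of the tested members. It lies on the minus strand of chromosome 7 from 142575529 to 142578143 (ENSMUSG00000000031). Its counts were 737, 558 and 78 in Tmem173fl/fl and 2193, 487 and 1011 in Tmem173iΔmye tumors. The highest 2 tumors were Tmem173iΔmye replicates 1 and 3, but replicate 2 of that group was below 2 of the 3 Tmem173fl/fl tumors, so the groups overlapped. As CPM, the means were 29.9 ± 22.5 and 77.8 ± 55.1 (SD, n = 3 each), and the log2 fold change of 1.38 (SE 0.79) was less than 2 SE from 0. Within a group, the highest tumor exceeded the lowest 10.2-fold in Tmem173fl/fl and 4.51-fold in Tmem173iΔmye. Without Tmem173iΔmye replicate 1 the log2 fold change was 0.67, and without Tmem173fl/fl replicate 3 it was 0.88. That last tumor held the lowest H19 and the highest Dlk1 of all 6.

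Igf2, the fetal growth factor that shares its enhancers with H19 and is expressed from the opposite parental copy, stayed at or below 8 counts in every tumor. It had 3, 8 and 2 counts in Tmem173fl/fl and 1, 2 and 3 counts in Tmem173iΔmye tumors. As no Tmem173iΔmye tumor exceeded 3 counts, it is given no fold. The ratio of H19 to Igf2 counts was 246, 69.8 and 39.0 in Tmem173fl/fl and 2193, 244 and 337 in Tmem173iΔmye tumors, so H19 was far above its neighbour in all 6. Mrpl23, a ribosomal protein gene beside H19 that is not a member, had a log2 fold change of 0.11 (SE 0.24). Within 500 kb on either side of H19 and Igf2, 17 other genes were tested and 0 passed the threshold. Their log2 fold changes ran from -0.77 (Gm45889) to 0.66 (Prr33), with a median of 0.25 and 12 above 0. Groups did not overlap for Dusp8, Ctsd and Tssc4 (higher) and for Gm45889, Gm38321 and Gm37235 (lower), beside 6.03% and 6.47% of all genes. Gm38321 and Gm37235 held at most 7 counts in any tumor.

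Members that act on insulin and insulin-like growth factor signalling or on cell division came next. Grb10 encodes an adaptor that restrains insulin and insulin-like growth factor receptors. Its counts were 79, 98 and 97 in Tmem173fl/fl and 166, 178 and 123 in Tmem173iΔmye tumors, so all 3 of the latter were higher. This was 5.83 ± 0.70 against 9.84 ± 1.78 CPM (SD, n = 3 each) and a log2 fold change of 0.75 (SE 0.24), or 1.69-fold, short of the threshold of 1. Igf2r, the receptor that carries IGF2 to the lysosome, was the member of chromosome 17, with 15.4 FPKM and a log2 fold change of -0.16 (SE 0.14). Cdkn1c, an inhibitor of cyclin-dependent kinases, had 569, 777 and 595 counts in Tmem173fl/fl and 738, 770 and 855 counts in Tmem173iΔmye. Its groups overlapped, at a log2 fold change of 0.26 (SE 0.18). Phlda2, which limits growth of the placenta, was at 0.18 (SE 0.27). Plagl1, a zinc finger factor that restrains cell division, was at -0.18 (SE 0.33). Among these growth regulators, Grb10 alone had groups that did not overlap.

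Cdkn1c and Phlda2 belong to the Kcnq1 cluster on chromosome 7, whose 7 members included most of the highly expressed genes of the list. Of 6 that were tested, 6 had a log2 fold change above 0, from 0.05 to 0.47 with a median of 0.22. These 6 genes share a stretch of chromosome and the same tumors, and 8111 of all 16426 genes tested were above 0. Across all tumors and with the filter, 0 of the 6 had an unadjusted p of edgeR under 0.05. The count above 0 fell to 5 of 6 when Tmem173iΔmye replicate 1 or replicate 3 was left out. Without Tmem173fl/fl replicate 2, the log2 fold changes of Cdkn1c and Cd81 were larger, 0.46 and 0.51, and both reached an unadjusted p under 0.05. Tssc4 reached it without Tmem173iΔmye replicate 2, without Tmem173iΔmye replicate 3 and without the filter. Tssc4, a spliceosome assembly factor, had the largest of these differences. It had 522, 482 and 558 counts in Tmem173fl/fl and 998, 602 and 581 in Tmem173iΔmye, or 33.2 ± 0.939 against 46.0 ± 14.8 CPM (SD, n = 3 each). Groups did not overlap, but replicate 1 stood above the other two in Tmem173iΔmye, and without it the log2 fold change fell from 0.47 (SE 0.22) to 0.17.

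The other members of the cluster had differences of 0.26 or less on the log2 scale, apart from Kcnq1ot1. Cd81, a tetraspanin of the cell surface, had 3976, 5642 and 3669 counts in Tmem173fl/fl and 6136, 5070 and 5004 counts in Tmem173iΔmye, with a log2 fold change of 0.26 (SE 0.21). Slc22a18, a membrane transporter, had 925, 1082 and 1041 counts against 1105, 1127 and 1100, a log2 fold change of 0.11 (SE 0.12). Ascl2, the transcription factor of intestinal stem cells, had 670, 635 and 705 counts against 685, 594 and 812, a log2 fold change of 0.05 (SE 0.15). Cd81 and Ascl2 both overlapped between the groups, as did Slc22a18 once scaled to CPM. Kcnq1ot1, the paternal antisense RNA that silences its neighbours in the cluster, had 75 to 192 counts per tumor and a log2 fold change of -0.38 (SE 0.37) without a filter. Its level of 0.089 FPKM is computed over a gene length of 93092 bases. Kcnq1ot1 lies inside Kcnq1 on the opposite strand, and reads of the 2 genes cannot be told apart if the counting ignored strand.

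Levels of the members spanned from strongly expressed genes to silence. Per gene length, the highest means over the 6 tumors were 108 FPKM for Cd81, 39.6 for Slc22a18, 26.6 for Ascl2, 22.3 for Cdkn1c and 21.8 for H19, all on chromosome 7. Tssc4 at 21.3, Igf2r at 15.4, Impact at 9.42 and Phlda2 at 6.48 FPKM followed. Impact guards translation during amino acid shortage. From there the means fell through Gnas, the stimulatory G protein subunit (4.77), Nnat, a small membrane protein of neurons (3.65), and the splicing protein Snrpn (3.32) to the ubiquitin ligase Ube3a (3.25), Plagl1 (2.61) and the splicing factor relative Zrsr1 (1.59). Grb10 at 0.857, Dlk1 at 0.796, the zinc finger gene Peg3 at 0.614 and Mkrn3, a ubiquitin ligase, at 0.536 FPKM were the lowest that were tested. In this order the values of neighbours overlapped except at 3 places, after Cd81, after Slc22a18 and after Igf2r. Cd81 by itself held 27.4% to 35.2% of all reads on the members, which summed to 840 to 1054 CPM in a tumor (on raw totals).

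**Figure D4:**
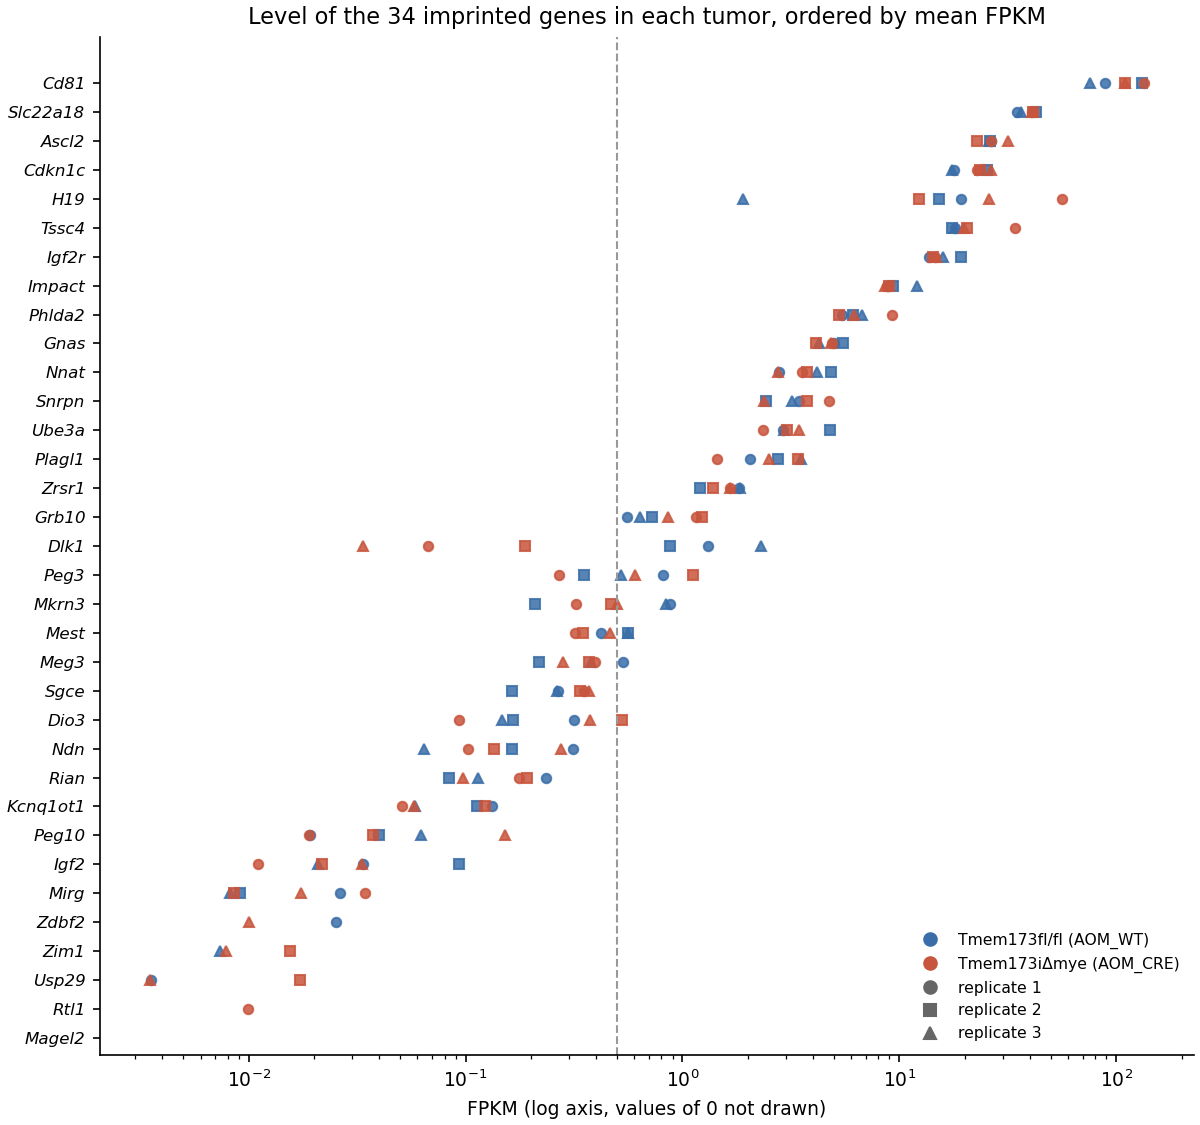
FPKM on a log axis (values of 0 not drawn) of the 34 members in each of the 6 tumors, ordered by their mean, with colour for the group and shape for the replicate. The dashed line marks the 0.5 FPKM filter. Points of a gene lie close together for most members, while Dlk1 and H19 are spread along the axis.

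The remaining tested members are brain-enriched or widely expressed genes, and the groups overlapped for each of them. Impact had a log2 fold change of -0.20, Gnas of -0.09, Nnat of -0.23, Ube3a of -0.27, Zrsr1 of -0.06, Snrpn of 0.25 (SE 0.31) and Peg3 of 0.24 (SE 0.52). Of these 7 genes, 5 were below 0. Mkrn3, the last of them, had 35, 8 and 36 counts in Tmem173fl/fl and 13, 19 and 20 counts in Tmem173iΔmye, a log2 fold change of -0.59 (SE 0.56). Without Tmem173fl/fl replicate 2, in which it had 8 counts, Mkrn3 passed the threshold as lower. Mkrn3 reached the filter only through Tmem173fl/fl, at 0.644 FPKM against 0.428 FPKM in Tmem173iΔmye, so nothing is read from that call.

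Of the 15 members under the filter, 8 had enough reads for a fold without it. Sgce, a member of the dystrophin-associated sarcoglycans, had 44, 26 and 47 counts in Tmem173fl/fl and 59, 57 and 62 counts in Tmem173iΔmye. Every Tmem173iΔmye tumor was higher, with a log2 fold change of 0.61 (SE 0.37). Peg10, the retrotransposon-derived gene next to Sgce and read from a shared promoter region, had 2 to 16 counts and overlapping groups, at 0.76 (SE 0.85). Mest, a hydrolase-like gene of the embryonic mesoderm, was at -0.43 (SE 0.42), and Ndn, a MAGE-family protein of neurons, at -0.06 (SE 0.67), both with overlap. Apart from Igf2, Mirg and Rtl1, no fold is given for Zdbf2, with 0 to 5 counts, Usp29, with 0 to 5 counts, Zim1, with 0 to 2 counts, or Magel2.

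The tested members were sorted by the parental copy assigned to each as textbook background, and counted above and below 0 without a test. That class can hold in some tissues only, and it was not measured here, so it may not apply in colon. Grb10 and Gnas were classed as mixed and are in neither count. Over all genes tested, 8111 of 16426 were above 0. Of 8 tested members classed as paternal (19 listed), 2 were above 0 and 6 below, with a median log2 fold change of -0.19. Of 9 tested members classed as maternal (13 listed), 7 were above 0 and 2 below, with a median of 0.18. Of those 9 maternal genes, 6 are the members of the Kcnq1 cluster, and Dlk1, on which the list was selected, is among the 8 paternal genes. Over all alternative settings the paternal count below 0 ranged from 4 to 7 and the maternal count above 0 from 6 to 8. Without Tmem173fl/fl replicate 3 the paternal members split evenly, 4 above and 4 below 0, with a median of -0.01.

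Lists of related genes were read from the same fit, and 0 genes of the 4 lists passed the threshold. Of 43 other imprinted genes, 25 were tested, with 3 higher and 2 lower at an unadjusted p under 0.05, a share to be read against 6.14% of all genes, and a median log2 fold change of -0.03. Groups did not overlap for 2 higher and 2 lower genes of the 25, beside 6.03% and 6.47% of all genes. Dhcr7, of cholesterol synthesis, and Cobl, which nucleates actin, had the lowest p. Dhcr7 had 1378, 1387 and 1199 counts in Tmem173fl/fl and 1677, 1736 and 1827 in Tmem173iΔmye tumors (log2 fold change 0.38, SE 0.13), with all 3 of the latter higher. Cobl had 955, 1469 and 1636 counts in Tmem173fl/fl and 863, 877 and 980 in Tmem173iΔmye tumors (log2 fold change -0.59, SE 0.19), with overlap.

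The insulin-like growth factor axis, through which Igf2, Igf2r and Grb10 act, had 13 of 18 genes tested. At an unadjusted p under 0.05, 3 were higher, the binding proteins Igfbp4, Igfbp5 and Igfbp7, and 1 was lower, the receptor Igf1r. These are 4 of 13 genes, beside 6.14% of all genes. Igfbp4 had 7621, 9515 and 7077 counts in Tmem173fl/fl and 13701, 11405 and 11319 in Tmem173iΔmye tumors (log2 fold change 0.57, SE 0.19), without overlap. Igfbp5 had 2450, 3211 and 1951 counts against 7561, 3123 and 4369 (log2 fold change 0.96, SE 0.35), with overlap at replicate 2. Igf1r had 662, 1004 and 772 counts against 566, 487 and 629 (log2 fold change -0.55, SE 0.20), without overlap. In all, groups did not overlap for 1 higher gene, Igfbp4, and for 3 lower genes, Igf1r, the insulin receptor Insr at -0.17 (SE 0.14) and the RNA-binding protein gene Igf2bp2 at -0.48 (SE 0.21), beside 6.03% and 6.47% of all genes. The median over the list was 0.06, near that of all genes.

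Among genes that set or keep DNA methylation imprints, 15 of 20 were tested and 13 of them were below 0, with a median of -0.13. Over all genes tested, 8315 of 16426 were below 0. An unadjusted p under 0.05 was reached by 2 of the 15, beside 6.14% of all genes. Those with an unadjusted p under 0.05 were Zfp57, which binds imprinting control regions and keeps them methylated, and Tet2, which oxidises methylated cytosine. Zfp57 was higher, with 107, 103 and 138 counts in Tmem173fl/fl and 221, 172 and 147 counts in Tmem173iΔmye tumors (log2 fold change 0.63, SE 0.23). Tet2 was lower, with 953, 908 and 1042 counts against 654, 815 and 803 (log2 fold change -0.36, SE 0.13). In all, groups did not overlap for 1 higher gene, Zfp57, and for 4 lower genes, beside 6.03% and 6.47% of all genes. The lower genes were Tet2, the histone methyltransferase gene Ehmt2 at -0.28 (SE 0.13), Arid4a at -0.29 (SE 0.14) and Arid4b at -0.22 (SE 0.12).

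The Notch pathway was read because Dlk1 resembles its ligands, and 18 of 22 genes were tested, with a median of -0.11. Of the 18, 5 were above 0 and 13 below, while 8315 of all 16426 genes tested were below 0. The target gene Hey1 had 76, 92 and 79 counts in Tmem173fl/fl and 115, 151 and 165 counts in Tmem173iΔmye tumors (log2 fold change 0.79, SE 0.25). The receptor Notch3 had 218, 288 and 225 counts in Tmem173fl/fl and 171, 156 and 145 counts in Tmem173iΔmye tumors (log2 fold change -0.65, SE 0.20). Hey1 and Notch3, the only genes of that list with an unadjusted p under 0.05, lay on opposite sides of 0 without overlap. Those are 2 of 18 genes, beside 6.14% of all genes. Groups did not overlap for 1 higher and 1 lower gene of the list, beside 6.03% and 6.47% of all genes.

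Markers of cells that could carry Dlk1 or other members are given beside them. Dlk1 is known in preadipocytes, muscle precursors and endocrine cells. The summed level of 7 enteroendocrine markers was 60.3, 39.1 and 129.5 CPM in Tmem173fl/fl and 43.1, 24.4 and 53.6 CPM in Tmem173iΔmye tumors. The 4 markers tested were all below 0, with a median of -0.77. In Tmem173fl/fl tumors the sum had the same order as Dlk1, highest in replicate 3 and lowest in replicate 2. In Tmem173iΔmye tumors the order was the opposite, with the sum highest in replicate 3 and lowest in replicate 2, where Dlk1 was lowest and highest. Dlk1 had only 6, 17 and 3 counts in these tumors, and each order is of 3 tumors, so nothing is read from either order. Of 6 adipocyte markers, 3 were at 0 in every tumor, and the sum was 12.4 to 19.6 CPM against 14.1 to 15.7 CPM. Smooth muscle markers summed to 357 to 471 CPM against 277 to 438 CPM, with a median of -0.50 over 7 genes. Of these, 1, Des, passed the threshold as lower (-1.01), beside 0.864% of all genes. Skeletal muscle markers summed to 1.67 to 4.10 CPM against 3.91 to 6.19 CPM, with 2 of 5 at 0. The adipocyte and skeletal muscle lists hold mainly genes of mature cells, so they say little about preadipocytes or muscle precursors.

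Fibroblast markers summed to 1786 to 2273 CPM in Tmem173fl/fl and 1855 to 2719 CPM in Tmem173iΔmye tumors, with 7 of 8 genes above 0 and a median of 0.26. Of the 8, 1, Dpt, passed the threshold as higher (1.08), beside 1.26% of all genes. Enteric neuron and glia markers summed to 46.4 to 84.8 CPM against 46.7 to 87.1 CPM. Endothelial markers were at 91.4 to 97.4 CPM against 94.3 to 113.6 CPM, with a median of 0.22 and 4 of 6 genes above 0. Epithelial markers were at 12459 to 14857 CPM against 13887 to 16004 CPM, with a median of 0.17 and 9 of 9 genes above 0. Leukocyte markers were at 278 to 611 CPM against 265 to 462 CPM, with a median of 0.07. Pancreas markers were at 69.4 to 128 CPM against 103 to 156 CPM, with 1 of 5 at 0. Every one of these marker sums overlapped between the groups, and the part that cell types have in the difference of Dlk1 was not tested.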

How the data were processed

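PolyA RNA of 6 tumors was sequenced from libraries made with the NEBNext Ultra kit. Per the submitters' processing notes, reads were handled with CASAVA 1.8, fastp, HISAT2 2.0.5, featureCounts 1.5.0-p3 and DESeq2 1.20.0 on GRCm38 (mm10). Whether counting used strand is not given in the sources used here, so overlapping members (Mest, Nnat, Kcnq1ot1, Zrsr1, Igf2r, Ube3a, Tssc4, Cd81, Snrpn and Gnas) are uncertain. The authors deposited raw read counts and FPKM values for 54532 genes, and 5 columns of their own comparison, which were not used. Their FPKM values, which equal counts over gene length and median-of-ratios size factors, were used for levels and the filter.

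Counts were tested with edgeR 4.0.16 under R 4.3.3 (quasi-likelihood test, TMM, group as the only term, Benjamini-Hochberg adjustment over the 16426 genes whose mean FPKM reached 0.5). SE is the absolute log2 fold change over the square root of F. CPM uses TMM library sizes. Members whose tumors of a group all held at most 3 counts got no fold, a floor that covers counting error only. Totals of 15329810 to 16533732 counts limit precision mainly for members with few reads.

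Members and lists were chosen with earlier results of these data known. Members of the Dlk1-Dio3 and H19-Igf2 clusters, members past the threshold or without overlap and the 5 of highest FPKM were given by tumor, and from each list the genes past the threshold or the 2 of lowest p. Igfbp7, Igf1r, Insr, Igf2bp2, Ehmt2, Arid4a, Arid4b, Tmem173, Mkrn3 and the neighbours of the clusters were named after their values were seen. Alternatives were RLE scaling, other filters, DESeq2 1.42.0, limma 3.58.1 (voom, and on log2(FPKM + 1)), Y-linked reads as a covariate, a replicate block and leaving out each tumor. Scripts were tested on simulated counts. Promoters and miRNAs came from RefSeq tables (GRCm38.p6), and percentages of promoters count either strand.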

Additional observations from a re-analysis of the deposited data

How the results depend on the processing

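Dlk1 was chosen for groups that do not overlap, so its sign was fixed in advance in every setting and only its size is described. Its log2 fold change ranged from -4.86 to -1.15 over 14 settings. The value of -1.15 came from limma on log2(FPKM + 1), where the pseudocount of 1 exceeds the level of Dlk1 in Tmem173iΔmye tumors. H19 ranged from 0.67 to 1.90 and Grb10 from 0.34 to 0.89. Members past the threshold numbered 1 (Dlk1), 0 with a mean FPKM of at least 1, since Dlk1 at 0.796 was then not tested, and 2 without a filter (Dlk1 and H19). Leaving out each tumor gave 1 to 2, with Mkrn3 added without Tmem173fl/fl replicate 2. Members with an adjusted p under 0.05 numbered 0 in edgeR with the 0.5 FPKM filter, 1 (Dlk1) with DESeq2 and 1 (Dlk1) in edgeR without a filter, and 0 to 0 when a tumor was left out. Over all genes the threshold was passed by 349, by 211 with Y-linked reads as a covariate, by 131 with limma on log2(FPKM + 1), by 872 without a filter, and by 218 to 636 when a tumor was left out (636 without Tmem173fl/fl replicate 1, 218 without Tmem173fl/fl replicate 3). An adjusted p under 0.05 was reached by 0 genes, by 28 with DESeq2, by 6 without a filter and by 0 to 1 when a tumor was left out (1 without Tmem173iΔmye replicate 1). The median log2 fold change of the tested members was 0.05, 0.11 without a filter and -0.083 to 0.059 when a tumor was left out (-0.083 without Tmem173iΔmye replicate 3). Replicate numbers did not pair the tumors: correlations of same-numbered tumors were -0.0014 to 0.26, with 2 of 3 over 0.1, and 3 of 6 tumors correlated best with their own number. With the replicate block, 377 genes and 1 member (Dlk1, -3.94) passed. A count filter chosen after the data were seen gave 376 genes and 1 of 25 members tested. The cause of these shifts was not tested. The filter is per gene length, so Meg3, Rian and Kcnq1ot1 were under it with more reads than Mkrn3, which was tested. Depth limits the 7 members that allow no fold.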
